A study of Rattus norvegicus with 6 samples.

Results

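Actb, B2m and Gusb, 3 genes that laboratories use as expression references, were followed by 3 custom probes each, 9 probes in all. They were chosen by the RefSeq mRNA accession that the array design gives each probe, and they are 3 of the 38 rat genes to which 61 of the 67 mRNA probes could be assigned. The array is a one-colour Agilent design made mainly for PIWI-interacting RNAs, with 39886 probes apart from controls. Male Sprague-Dawley rats received corn oil (control, 3 rats) or di(2-ethylhexyl) phthalate in corn oil (DEHP, a plasticizer and testicular toxicant, 3 rats) by gavage for 28 days, DEHP at 1000 mg/kg/day. Whole testis was taken at an age of 11 weeks, 1 testis and 1 array per rat. The design text of the series assigns the 2 treatments to the groups in reverse, so every direction below rests on the sample labels. Of the testis marker genes considered, only Lhcgr, the luteinizing hormone receptor of Leydig cells, had a probe, and it was detected on all 6 arrays. None of 5 Sertoli, 6 germ cell, 2 peritubular and 6 leukocyte markers had one, so the makeup of the tissue could not be checked.

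Actb encodes beta-actin, the cytoplasmic actin of the cell cortex and stress fibres. B2m encodes beta-2-microglobulin, the light chain that major histocompatibility complex (MHC) class I molecules need to reach the cell surface, and it is induced by interferons. Gusb encodes beta-glucuronidase, a lysosomal hydrolase that removes glucuronic acid from glycosaminoglycans, and in mouse kidney it is a classic androgen-responsive gene. A reference gene divides out differences in input between samples, which works only if the gene itself does not differ between the groups compared. In whole tissue, fewer cells of a type and less RNA per cell cannot be told apart.

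In the GRCr8 assembly Actb lies on chromosome 12 from 16776664 to 16779634, Gusb on the same chromosome from 32337281 to 32350838, and B2m on chromosome 3 from 129549236 to 129555354. The probes carry the accessions NM_031144.2 (Actb), NM_012512.1 (B2m) and NM_017015.2 (Gusb). Where in each transcript a probe lies was not analysed here. The RefSeq start region of B2m (GRCr8, plus strand, chr3:129549080-129549379, 250 bases before to 50 after the start at 129549330, which lies 94 bases inside the gene record) is shown because B2m is the gene whose probes all rose, with the motif matches described next in capitals.
B2m: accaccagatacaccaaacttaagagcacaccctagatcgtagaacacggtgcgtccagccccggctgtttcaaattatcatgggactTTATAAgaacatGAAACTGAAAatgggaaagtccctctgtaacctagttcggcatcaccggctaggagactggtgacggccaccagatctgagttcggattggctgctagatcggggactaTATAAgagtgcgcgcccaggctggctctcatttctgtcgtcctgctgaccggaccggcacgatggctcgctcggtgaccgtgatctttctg
The motifs searched on both strands were a repeat of GAAA after a gap of 2 bases, the core of the interferon-stimulated response element, TATAA, the core of the TATA box, and CACGTG, an E-box core. In B2m the first began at position -150 from the start used for the window, as GAAACTGAAA. TATAA began at -41 and at -161, and the last of these overlaps a match on the other strand at -162. The start region of Gusb held none of the 3 motifs. Over 33469 start regions of the same length, 3.92% held the spaced GAAA repeat, 26.2% TATAA and 6.42% CACGTG. These matches describe the letters of the window only.

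Signals are given as the log2 of the background-subtracted signal, averaged over the 10 spots of a probe, minus the 75th percentile of the same array. Levels of different probes depend on their sequence and are not compared. An array detected a probe where over 0.5 of the spots exceeded the background clearly by the scanner software's flag, and the 23090 probes that 3 or more arrays detected were tested. Groups were compared with limma, and a probe is said to have risen or fallen where the Benjamini-Hochberg adjusted p over all 23090 probes was below 0.05. The labels name separate rats, so the spread is that between animals, with 3 per group. The headers carry a scan identifier, which control 1 shared with the 3 DEHP arrays, while controls 2 and 3 shared another. Arrays with the same identifier are taken here to share a slide, which no label states, and the slide of control 1 is called the first. Values within the first slide are given beside each of the 3 genes, and for Gapdh, Rpl13a and Lhcgr. They rest on control 1, which detected 16802 probes, against 21395 to 23866 on the other arrays. Control 1 also had the lowest 75th percentile (log2 5.74) and the highest median of negative control spots (4.52).

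Of the 9 probes, 8 could be tested, and 5 of these differed between the groups. The 3 B2m probes and 1 Actb probe rose in DEHP testis, and 1 Gusb probe fell. Over all probes tested, 10.7% were called, 4.44% as higher and 6.26% as lower. Among the 56 mRNA probes tested, 24 rose (42.9%) and 2 fell (3.57%). The 4 of 8 member probes that rose thus lie near the share of mRNA probes, above that of all probes. The 56 include the members, and of the 48 other mRNA probes 20 rose and 1 fell. Of the 21 tested custom probes of other named genes, 4 rose and 1 fell, a smaller share rising than among the members. The mRNA counts moved with scaling and with single arrays. With median centring 5 rose and 5 fell, and without control 3 or DEHP 1 only 1 rose and 0 fell (limma; 27 and 28 higher and 3 lower in each at an unadjusted p below 0.05). Without DEHP 2 or with slide as a block, 0 were called (limma; 30 and 19 higher and 2 lower in each at an unadjusted p below 0.05). The 3 DEHP values did not overlap the 3 control values in 6 of the 8 tested member probes, 5 of them higher and 1 lower in DEHP testis. Over all probes 37.5% did not overlap, 20.6% as higher and 16.9% as lower, and over mRNA probes the share was 75%. The median change was 0.48 over the 8 member probes, 0.44 over mRNA probes and 0.05 over all probes.

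**Figure D1:**
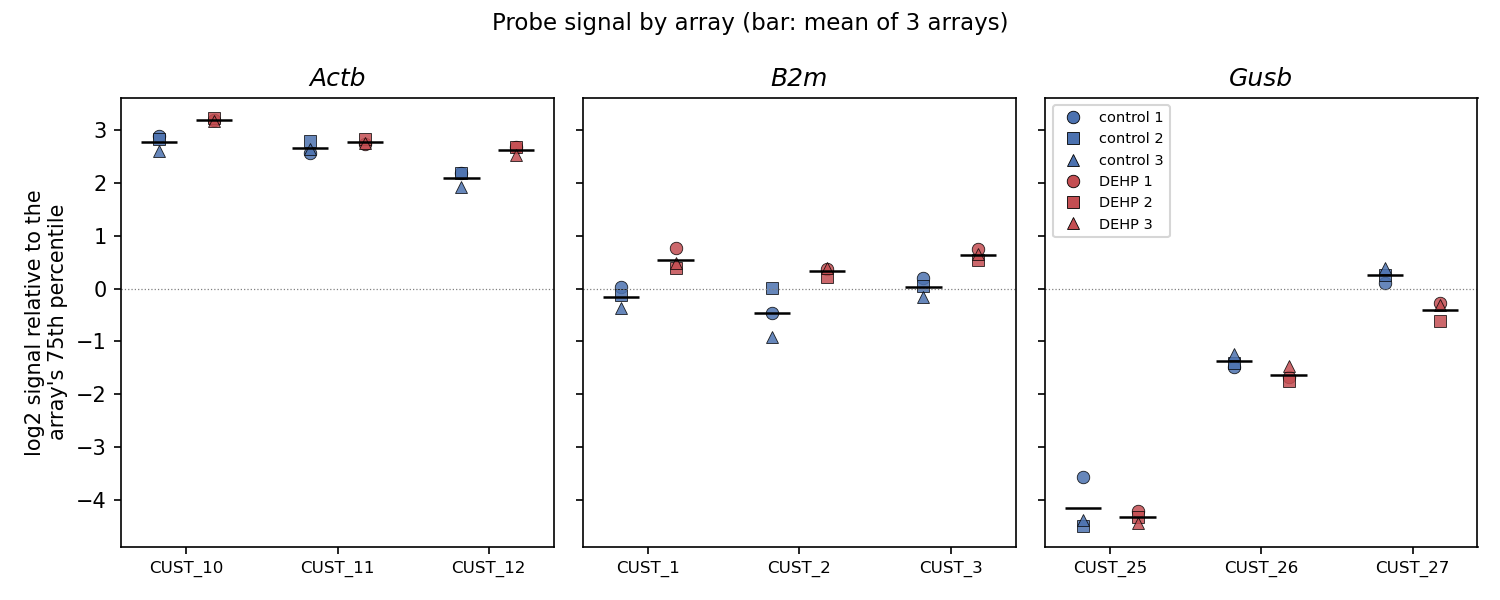
Log2 signal relative to the 75th percentile of the array (vertical axis) for the 9 probes of Actb, B2m and Gusb; each point is 1 array, blue for control and red for DEHP, and each bar the mean of 3 arrays. The 3 B2m probes are higher on every DEHP array than on any control array, the Gusb probe CUST_27 is lower, and CUST_25 lies near -4 in both groups.

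B2m rose on all 3 probes. The probe CUST_1 had 0.02, -0.13 and -0.37 on control arrays 1 to 3 and 0.77, 0.40 and 0.49 on DEHP arrays 1 to 3. It rose by 0.71 with a standard error of 0.15, which is 1.64-fold (limma, adjusted p = 0.0242). The groups did not overlap, and the lowest DEHP array lay above the highest control. CUST_2 had -0.46, 0.01 and -0.91 in controls and 0.37, 0.23 and 0.38 in DEHP testis. Its rise was 0.78 (standard error 0.21, adjusted p = 0.0435). Controls spread far more than DEHP arrays on this probe, with SDs of 0.46 and 0.08 (n = 3), and control 3 was the lowest. CUST_3 had 0.19, 0.05 and -0.15 in controls and 0.75, 0.54 and 0.65 in DEHP testis. Its rise of 0.62 had a standard error of 0.14 (adjusted p = 0.0261).

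As the mean of its probes per array, B2m averaged -0.19 ± 0.25 on control arrays and 0.51 ± 0.12 on DEHP arrays (SD, n = 3). B2m was thus 0.70 higher, or 1.63-fold, with no overlap (two-sided exact permutation test, p = 0.1, the smallest that 3 against 3 allows). Within the first slide, where control 1 is the only control, the difference was 0.59. The difference was 0.56 without control 3 and 0.79 without control 2. Of 5 other genes of MHC class I presentation considered (RT1-A1, RT1-CE1, Tap1, Tap2 and Nlrc5), none had a probe. Leukocyte markers had none either, so the part of infiltrating cells in the B2m signal was not tested.

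Actb rose on 1 of 3 probes. CUST_12 had 2.20, 2.20 and 1.92 in control rats and 2.68, 2.70 and 2.54 in treated rats. It rose by 0.53 with a standard error of 0.14, or 1.45-fold (limma, adjusted p = 0.0446), with no overlap. CUST_10 had 2.89, 2.85 and 2.60 in controls and 3.20, 3.23 and 3.17 in DEHP testis. Its groups did not overlap either, but its difference of 0.42 with a standard error of 0.14 missed the threshold (adjusted p = 0.0803). CUST_10 passed in 5 of 27 alternatives, among them quantile normalization and the authors' values (limma, adjusted p = 0.0305 and 0.0290). In 1 alternative, with B2m as the reference, its difference was -0.28. CUST_11 had 2.58, 2.81 and 2.64 in controls and 2.75, 2.83 and 2.76 in DEHP testis. These values overlapped, and the difference of 0.10 had a 95% confidence interval of -0.20 to 0.41 (adjusted p = 0.623).

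The mean of the Actb probes went from 2.52 ± 0.12 to 2.87 ± 0.05 (SD, n = 3 rats). The difference of 0.35 is 1.28-fold, with no overlap between the groups (exact permutation test, p = 0.1). Within the first slide it was 0.32. None of 4 other actin cytoskeleton genes considered (Actg1, Cfl1, Pfn1 and Tpm1) had a probe.

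Gusb fell on 1 of 2 tested probes. CUST_27 had 0.11, 0.26 and 0.40 in control rats and -0.26, -0.61 and -0.31 in treated rats. It fell by 0.65 with a standard error of 0.14, which is 1.57-fold lower (limma, adjusted p = 0.0253), and the groups did not overlap. CUST_26 was dim, with a mean signal of 19.1, 31.2 and 25.2 in controls and 22.2, 24.6 and 27.4 in DEHP testis before centring. On control 1 only 2 of its 10 spots were well above background. The centred difference of -0.26 had a 95% confidence interval of -0.63 to 0.12 and did not pass (adjusted p = 0.319).

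The third Gusb probe, CUST_25, had no spot well above background on any array. Its signal was 4.48, 3.65 and 2.85 in control rats and 3.77, 4.13 and 3.47 in treated rats. The median of the negative control spots of the same arrays was 4.52, 3.55 and 2.81, then 3.73, 4.10 and 3.39. CUST_25 thus followed the background of each array and was not tested.

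Over CUST_26 and CUST_27, Gusb averaged -0.56 ± 0.13 on control arrays and -1.01 ± 0.16 on DEHP arrays (SD, n = 3). The difference of -0.45 (exact permutation test, p = 0.1) was -0.33 within the first slide. The lysosomal genes Hexa, Lamp1 and Ctsd had no probe.

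The calls depended on single arrays. Without control 2, the same 5 member probes passed. Without control 3, DEHP 1, DEHP 2 or DEHP 3, or with slide entered as a block, 0 of the 8 member probes passed (limma), while 5, 6, 5, 6 and 4 of them had an unadjusted p below 0.05. Without control 1, 3 passed, and with arrays centred on their median 1 passed, the fall of CUST_27.

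Whether probes of a gene changed alike was asked with the difference of 2 probes on the same array, over 7 pairs. Relative to its mean in controls, CUST_11 minus CUST_12 of Actb was -0.19, 0.04 and 0.15 in control rats and -0.51, -0.43 and -0.35 in treated rats. The groups did not overlap, and the mean differed by -0.43 (exact permutation, two-sided, p = 0.1, adjusted p = 0.14). CUST_10 minus CUST_11 differed by 0.32 and CUST_10 minus CUST_12 by -0.11, both without overlap and with the same p. For Gusb, CUST_26 minus CUST_27 was 0.04, -0.04 and 0.00 in controls and 0.23, 0.49 and 0.48 in DEHP testis, a difference of 0.40 at the same p. No pair could pass 0.05 in this design. The B2m pairs differed by -0.07, 0.09 and 0.16, the first and the last of them with overlapping groups (p = 0.8 and p = 0.5 by the exact permutation test).

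Over the spots of a probe on an array, the SD was 0.02 to 0.09 for Actb and 0.04 to 0.15 for B2m. It was 0.08 to 0.22 for CUST_27 and 0.15 to 0.37 for CUST_26. Averaged over its spots, no Actb or B2m value had a standard error above 0.05. The spot error leaves out the spread between rats. Between arrays of a group, the pooled SD was 0.09 to 0.13 for the Actb probes, which ranked 7, 10 and 13 from the lowest among the 56 mRNA probes. For B2m it was 0.14 to 0.33, with CUST_2 ranking 52 of 56, and for the 2 Gusb probes 0.14 and 0.17. The median was 0.17 over mRNA probes and 0.21 over all probes.

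**Figure D2:**
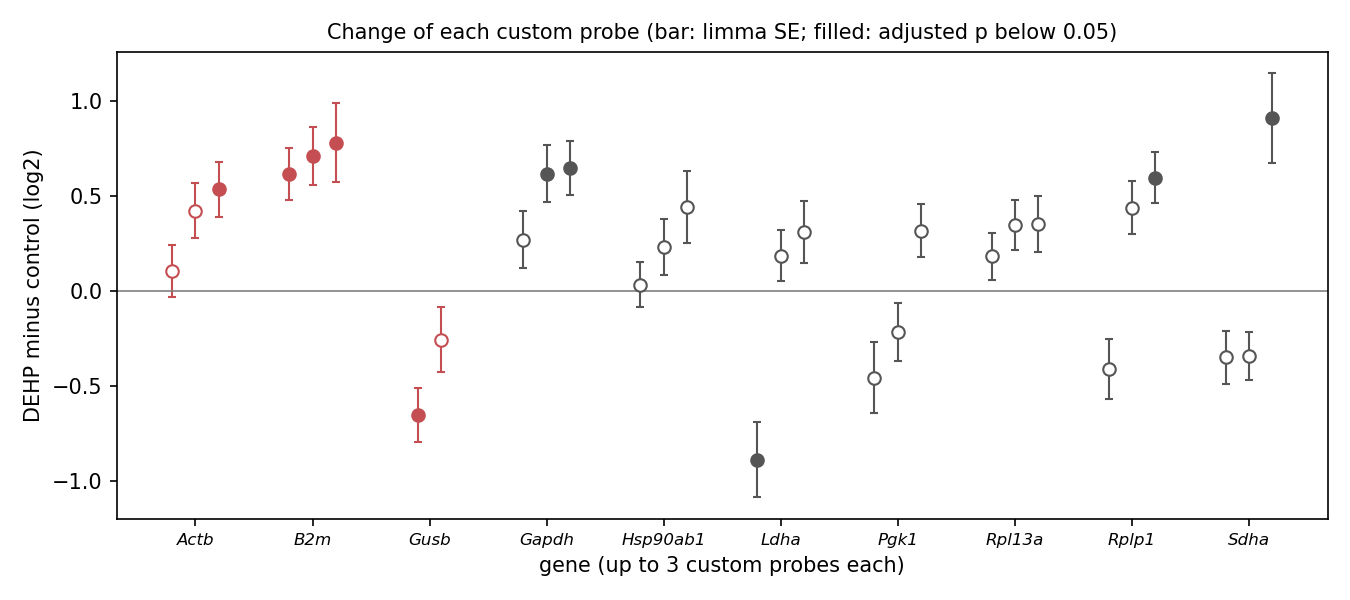
DEHP minus control on the log2 scale (vertical axis) for each tested custom probe of 10 genes with up to 3 such probes, red for Actb, B2m and Gusb and grey for the others; bars are limma standard errors and filled points passed the test. The B2m points lie close together between 0.62 and 0.78, while the points of Sdha run from -0.35 to 0.91, the highest from a probe detected on 3 of 6 arrays.

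The same custom set holds 3 probes each for other genes used as references. In all 11 genes with 33 probes could be named, of which 29 probes of 10 genes were tested. Hprt1, a purine salvage enzyme, had no probe that 3 or more arrays detected, so it was not tested. Of the 21 tested probes of genes other than Actb, B2m and Gusb, 4 rose and 1 fell. Rpl13a, a protein of the large ribosomal subunit, had changes of 0.18 to 0.35, none of which passed (limma; 2 of 3 had an unadjusted p below 0.05). Gapdh, a glycolytic enzyme, had 0.27 to 0.65, and 2 of 3 probes rose. Within the first slide the mean of the Gapdh probes was 0.33 higher, against 0.51 over all arrays, and its probe CUST_36 had -0.009. The mean of Rpl13a was 0.28 higher within that slide, against 0.29. Pgk1, of the same pathway, had -0.46 to 0.32, with no call (limma; 2 of 3 at an unadjusted p below 0.05). Sdha, a subunit of succinate dehydrogenase, had -0.35 and -0.34 on the 2 probes detected on all 6 arrays, and 0.91 on CUST_39, detected on 3. Only CUST_39 passed (limma, adjusted p = 0.0414), while the other 2 had an unadjusted p below 0.05. The custom probes of Ldha, lactate dehydrogenase A, had -0.89 to 0.31, and the lowest, CUST_18, fell (limma, adjusted p = 0.0268). An Ldha probe outside the custom set rose by 0.91 (limma, adjusted p = 0.0207), so probes of this gene were called in opposite directions. The range between probes of a gene was 0.16 for B2m, 0.17 for Rpl13a, 0.40 for Gusb and 0.43 for Actb.

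As a measure of stability, the SD over the 6 arrays of the log2 ratio of a gene to each of the other 9 genes was averaged. It was lowest for Rpl13a at 0.20 and highest for Gusb at 0.42. B2m, with 0.37, was next to Gusb at the unstable end, and Actb ranked 5 of 10 with 0.22. The ratio of Actb to Rpl13a had the lowest SD of any ratio with Actb, 0.08, and that of B2m to Gusb the highest of any with a member, 0.68. The measure includes the difference between groups, so genes that changed alike score as stable. Rpl13a was itself 0.29 higher in DEHP testis as a mean, without overlap (exact permutation test, p = 0.1). The means of Pgk1 and of the custom Ldha probes differed by -0.12 and -0.13 with overlapping groups, and ranked 6 and 7. Sdha ranked 2 of 10 with 0.21, as a mean that includes CUST_39. Hsp90ab1 and Rplp1 were included among the 10 after the array design was seen, and the ranking is a description over 6 arrays.

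A ratio within an array does not depend on how arrays are centred. Relative to the mean in controls, B2m minus Gusb was 0.24, 0.18 and -0.42 in control rats and 1.23, 1.21 and 1.03 in treated rats. The difference of 1.16 is a 2.23-fold change of B2m relative to Gusb (exact permutation test, p = 0.1, adjusted p = 0.1 over 3 pairs). Actb minus Gusb was 0.16, 0.11 and -0.27 in controls and 0.76, 1.03 and 0.63 in DEHP testis. The difference was 0.81, or 1.75-fold, with no overlap and the same p. B2m minus Actb was 0.08, 0.07 and -0.15 in controls and 0.47, 0.18 and 0.39 in DEHP testis. The difference was 0.35, or 1.27-fold, again at p = 0.1 by the exact permutation test. The DEHP arrays lay above the controls in all 3 ratios. Within the first slide the 3 differences were 0.92, 0.65 and 0.27. After a normexp background correction with an offset of 50, which compresses the dimmer gene, B2m relative to Actb was -0.014 with percentile centring and -0.090 with quantile normalization. These normexp runs also started from the median spot signals. Quantile normalization alone gave 0.16 and the values in the authors' deposited table gave 0.14, each with p = 0.4 by the exact permutation test. The direction of that ratio thus differed between settings, and the cause was not tested. That of the other 2 ratios was the same under all alternatives run, of which the other centrings and eBayes variants cannot alter a ratio.

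**Figure D3:**
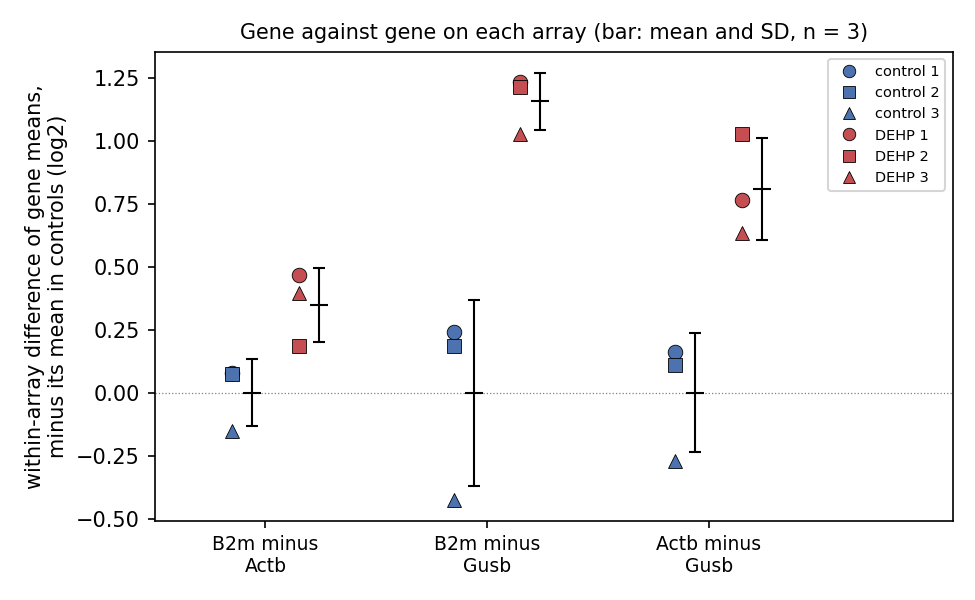
Difference between the mean log2 signals of 2 genes on the same array, minus its mean over the 3 control arrays (vertical axis), for 3 pairs of genes; points are arrays, blue for control and red for DEHP, with the mean and SD of 3 arrays beside them. The DEHP arrays lie above the controls in each pair, by 0.35 for B2m minus Actb, 1.16 for B2m minus Gusb and 0.81 for Actb minus Gusb.

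To see what these genes do as references, all arrays were centred on each of them in turn and the test was repeated over the 23090 probes. With the 75th percentile, 1026 probes were higher and 1445 lower in DEHP testis. With Actb as the reference, 192 were higher and 5925 lower. With B2m, 49 were higher and 13156 lower. With Gusb the balance turned, to 10403 higher and 494 lower. The mean of the 3 genes gave 325 higher and 3138 lower. Centring on a gene subtracts its own change from that of every probe, so these shifts follow from the changes of the 3 genes given above and are no further evidence. The error of the reference enters every probe of an array alike in these fits, so their calls are not independent of each other.

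The same shift applies to the 56 mRNA probes. Of these, 3 rose and 10 fell with Actb as the reference, 0 rose and 12 fell with B2m, and 45 rose and 0 fell with Gusb (limma; at an unadjusted p below 0.05, 0 had higher values with B2m and 1 lower values with Gusb). The median change of mRNA probes was 0.08, -0.27 and 0.89, against 0.44 with the 75th percentile. Rpl13a, with no call by the 75th percentile, rose on 3 of 3 probes with Gusb as the reference, by 0.64 to 0.81, and had no call with Actb or B2m, where 0 and 1 of its probes had an unadjusted p below 0.05. Gapdh rose on 2 of 3 probes by the 75th percentile, on 3 with Gusb, and on 0 with Actb or B2m (limma; 0 with either at an unadjusted p below 0.05). Pgk1 fell on 2 of 3 probes with Actb or B2m and rose on 1 with Gusb. Sdha fell on 2 of 3 with Actb or B2m, and its probe CUST_39 rose with Gusb, as it did by the 75th percentile. Of the 4 Ldha probes, 1 rose and 1 fell by the 75th percentile, 3 rose with Gusb, and 1 fell with Actb or B2m. Lhcgr had a change of 0.55 by the 75th percentile (adjusted p = 0.0784) and rose by 1.00 with Gusb (adjusted p = 0.0105). Its change was 0.20 with Actb (adjusted p = 0.437) and -0.15 with B2m (adjusted p = 0.579), all by limma. By the 75th percentile within the first slide, the difference of Lhcgr was 0.17.

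**Figure D4:**
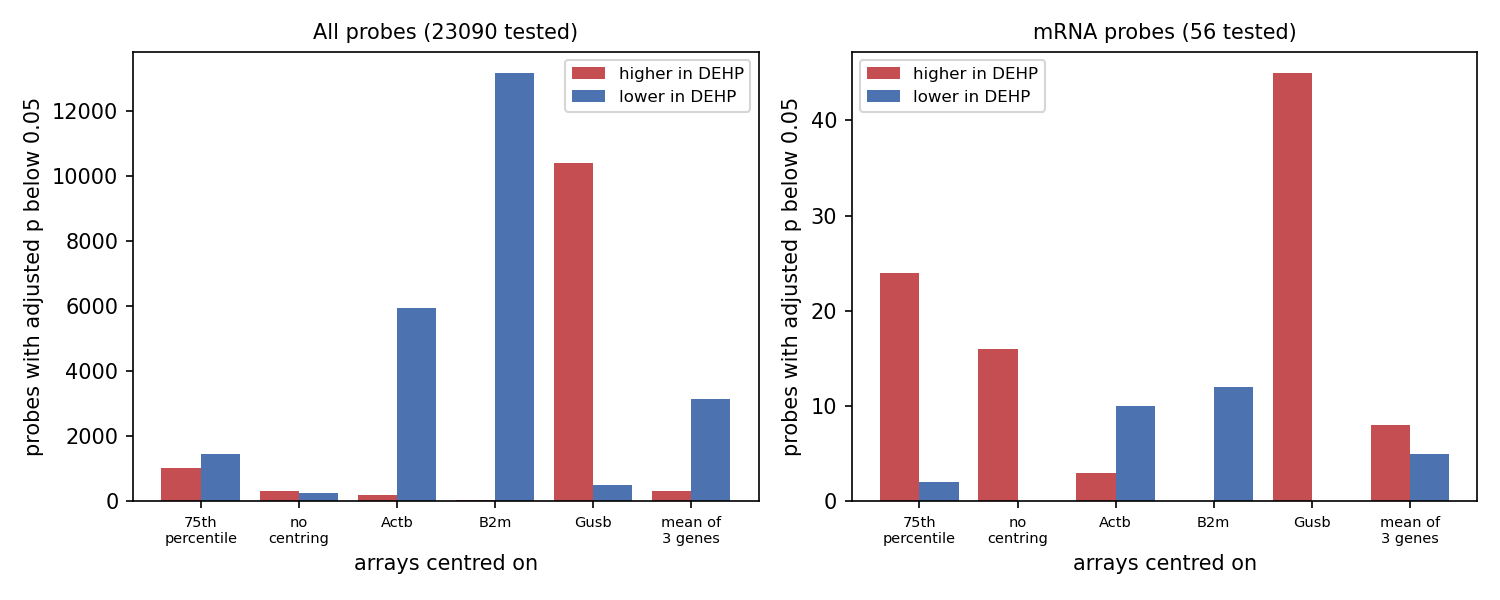
Number of probes with an adjusted p below 0.05 (vertical axis), higher (red) or lower (blue) in DEHP testis, by the quantity on which arrays were centred, for all probes on the left and mRNA probes on the right. With Gusb as the reference 10403 probes are higher, and with B2m 13156 are lower.

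The references also differed in how far they removed spread between rats of a group. The median pooled SD within groups over all probes was 0.31 without centring and 0.21 with the 75th percentile. It was 0.23 with Actb, 0.25 with Gusb and 0.29 with B2m. Over mRNA probes the order of Gusb and B2m was the reverse, with 0.26 both without centring and with Gusb, 0.23 with B2m, 0.18 with Actb and 0.17 with the 75th percentile. Over all probes in DEHP arrays alone, the median SD was 0.20 with Gusb, 0.16 with Actb, 0.17 with B2m and 0.18 without centring. In control arrays alone it was 0.249 with Gusb, 0.255 with Actb, 0.338 with B2m and 0.386 without centring. Before centring, the Actb mean followed the 75th percentile of the array at r = 0.93 over 6 arrays, B2m at 0.81 and Gusb at 0.44, as a description. Without centring the differences between groups were 0.61 for Actb, 0.96 for B2m and -0.20 for Gusb, while the 75th percentile itself was 0.25 higher in DEHP testis. Uncentred Gusb had 5.05, 5.80 and 5.47 in control rats and 5.17, 5.19 and 5.35 in treated rats, and the groups overlapped (exact permutation test, p = 0.6). CUST_27 did not pass without centring (limma, adjusted p = 0.293), and the difference of CUST_26 was -0.00086.

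Over the 6 arrays, the genes whose centred signal was most like that of Actb among 31 others were Ppp2r2b, a regulatory subunit of protein phosphatase 2A, at Pearson r = 0.98, P2rx2, an ATP-gated channel, at 0.96 and Ndfip2, an adaptor of ubiquitin ligases, at 0.95. For B2m they were Rpl13a at 0.99, Ppp2r2b at 0.97 and Ndfip2 at 0.93. These values share the centring and the group difference, and 29 of the 31 genes had a positive r with Actb and with B2m. Gusb had a positive r with only 2 of the 31 genes, Pgk1 at 0.84 and the nucleoside transporter gene Slc28a2 at 0.36. The next, Map2, a microtubule protein gene, had -0.26.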

How the data were processed

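Cy3-labelled cRNA from 6 testes was hybridised to 1-colour Agilent arrays, per the labels' protocols, and read with Agilent Feature Extraction 11.0.1.1 (program from the submitters' processing notes, version from the file headers). Each deposited file gives an intensity per spot after background subtraction. It also gives flags, which are other values, 0 or 1, for outlier spots and for spots well above background. The authors also deposited log2 values, 1 per probe and array, with no method stated in the sources used here. The columns of that table share 1 median of 4.42. They correlated at 0.992 to 0.999 with the log2 intensity of the same array. Only the log2 scale was settled, by slopes of 0.888 to 0.984 against that intensity, since a correlation does not depend on the base of the logarithm.

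Samples were grouped by title. Outlier spots (65 to 86 per array) were left out, and no spot was saturated. Log2 intensities were averaged over spots, and the 75th percentile of an array was subtracted. Probes well above background on at least 3 arrays were tested by limma 3.58.1 (lmFit, eBayes with trend) under R 4.3.3, with Benjamini-Hochberg adjustment. Gene means and ratios, 1 per array, were tested by exact permutation, two-sided. The number of arrays limits the precision. The limma step was tested on simulated data with independent noise, no slide difference and changes larger than those of the members. That test does not cover the setting of these arrays. Symbols came from RefSeq tables of GRCr8 by unversioned accession, and start region sequences are RefSeq's. Entries matched B2m and Gusb. Named genes were the members, listed reference genes with a probe and the 3 genes most correlated with each member. Members and lists were chosen with earlier results of these data known. Alternatives were other centrings, background corrections, filters, spot summaries, blocks and variance models, the authors' table and each array left out. Normexp used the median spot signal, since no mean signal is in the files. Figures used matplotlib 3.10.9 and Python 3.11.15.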

Additional observations from a re-analysis of the deposited data

How the results depend on the processing

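The number of member probes called was 5 of 8. It was 6 with quantile normalization, with or without normexp, and with the authors' values. It was also 6 with the percentile from probes that every array detected and with Gusb as the reference. It was 1 without centring and with median centring, 2 with Actb or B2m as the reference, 3 with the mean of the 3 genes and with eBayes without trend, 1 on slide 1 alone, 0 with the slide as a block (limma, 4 at an unadjusted p below 0.05), and 0 to 5 with 1 array left out. Over all probes, 2471 were called. This was 568 without centring, 6117, 13205 and 10897 with Actb, B2m and Gusb as the reference, 1598 with normexp and percentile centring, 4000 with array weights, 7 with the slide as a block, and 275 to 4514 with 1 array left out. With the mean of the 3 genes as the reference, 9.38% of calls were higher, against 41.5%. The share was 68.6% when the percentile was taken from probes that every array detected, 9.50% with median centring, 55.6% without centring, 31.3% with normexp and percentile centring and 30.6% with the filter at all 6 arrays. In the first 3 of these the median change over all probes was 0.19, -0.15 and 0.31, against 0.05. With B2m as the reference the mean change of Actb was -0.35, CUST_10, CUST_11 and CUST_12 had -0.28, -0.60 and -0.17, and CUST_3 had -0.086. CUST_11 had -0.10 with median centring and with the mean of the 3 genes, and -0.25 with Actb as the reference, and CUST_26 had 0.20 with Gusb. With 1 gene as the reference, the mean of its own probes is set to 0 by construction. B2m relative to Actb was -0.014 and -0.090 after normexp with percentile centring and quantile normalization, and 0.14 in the authors' value table. The offset of 50 is of the size of the B2m signals. The mean change of B2m ranged from 0.35 to 1.16 and that of Gusb from -1.16 to -0.20 over 26 alternatives each, with no change of sign. Some of these, the eBayes variants and the replicate block, cannot alter a gene mean and are no check of it. Same-numbered control and DEHP arrays deviated together at r = 0.13, 0.46 and 0.08. Arrays with different numbers had r from -0.43 to 0.29, and only control 3 with DEHP 1, at 0.29, was positive. Whether the numbers pair the rats was not settled by these values, and the main test did not pair them. The replicate block gave 4465 calls over all probes and 5 among members. Slide 1 alone has a single control, whose spread is taken to equal that of the DEHP arrays.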
